A study of Arabidopsis with 9 samples.

Results

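LTP1 to LTP6 are 6 Arabidopsis genes of type 1 non-specific lipid transfer proteins, and their transcript levels are described here in seedlings of a SWI/SNF mutant, in a further condition and in the wild type. They were found by their identifiers in the authors' deposited table, where each is at a locus of its own, 6 loci of 31747 in all. The genes were selected on the FPKM values of all 3 conditions, since they were proposed with those levels already known. Their values are therefore a description, and the authors' q for them is given as a deposited annotation and supports nothing further. RNA was sequenced from whole 14-day-old seedlings grown in long days, with no treatment, and 9 samples are labelled, with 3 biological replicates per genotype for syd-5, swi3d-1 and the wild type (WT). syd-5 is a mutant allele of SYD, the ATPase of a SWI/SNF chromatin remodelling complex that shifts nucleosomes, and swi3d-1 is an allele of SWI3D, a core subunit of such complexes. The table holds 1 pooled value per condition for syd-5, for a condition whose name ends in 3d, and for WT. That name is found in no sample label, so no genotype is given to it here, and it is called the unmatched condition.

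Lipid transfer proteins are small secreted proteins whose conserved cysteines hold a cavity that can bind fatty acids and other lipids. They are found in cell walls, above all of the epidermis, and are known for links to the cuticle, to defence and to drought and cold responses. Several of their genes lie in tandem pairs. LTP1 is known as an abundant epidermal cell wall protein, and LTP2, its neighbour, for a role where cuticle and cell wall meet. LTP3 and LTP4 are known as genes induced by abscisic acid and drought, with LTP3 a target of the transcription factor MYB96. LTP5 is known for a role in pollen tube growth.

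Levels are in FPKM, fragment counts scaled to transcript length and library size, and so can be compared between genes. No value per replicate is in the table, so neither the replicate spread nor the depth nor a detection limit can be given. An error for each log2 ratio comes only from the authors' test statistic, as the ratio divided by that statistic, and is called the implied standard error. Its median over tested loci was 0.295 in syd-5 and 0.294 in the unmatched condition. SYD stood at 4.11 FPKM in syd-5, 24.3 in the unmatched condition and 23.1 in WT, and SWI3D at 16.0, 3.81 and 16.4 FPKM in the same order of conditions. SYD was thus low in the condition that carries the syd-5 label, at a log2 ratio to WT of -2.49. SWI3D, the gene that swi3d-1 is named for, was low in the unmatched condition, at -2.11 (q = 0.000567 for both in the authors' deposited table). The name swi3d-1 heads no condition of the table, and expression values were not used to give one a genotype.

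LTP1, LTP2, LTP5 and LTP6 stood lower in both non-WT conditions than in WT, and the tandem pair LTP3 and LTP4, both scarce in WT, stood higher. LTP1, LTP5 and LTP6 fell in both comparisons, LTP2 was lower in both and passed the authors' threshold in the unmatched condition, and LTP3 and LTP4 rose in both. In the authors' deposited table, 2 of the 6 members rose and 3 fell in syd-5 at q < 0.05, against 27.9% of all 18442 tested loci called in either direction (13.8% rises and 14.1% falls). In the unmatched condition, 2 rose and 4 fell, against 28.1% of 18450 tested loci called (13.7% rises and 14.4% falls). Tested loci are those that reached 1 FPKM in any condition and have a completed test. All 6 members passed this filter, LTP4 only through the non-WT conditions, since it stood below 1 FPKM in WT. In whole seedlings, fewer cells of a type and less RNA per cell cannot be told apart. Of the members, LTP1 is known as an epidermal protein, while LTP3, LTP4 and LTP5 are described above for other roles. Markers of the shoot epidermis are thus not a reference for every member. The 8 markers of the shoot epidermis had median changes in log2(FPKM + 1) of -0.26 in syd-5 and -0.18 in the unmatched condition. In the authors' deposited table, 4 of these markers fell in syd-5 and 3 in the unmatched condition, and the others did not pass the threshold. The part of tissue composition in the falls and the rises was not tested.

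**Figure D1:**
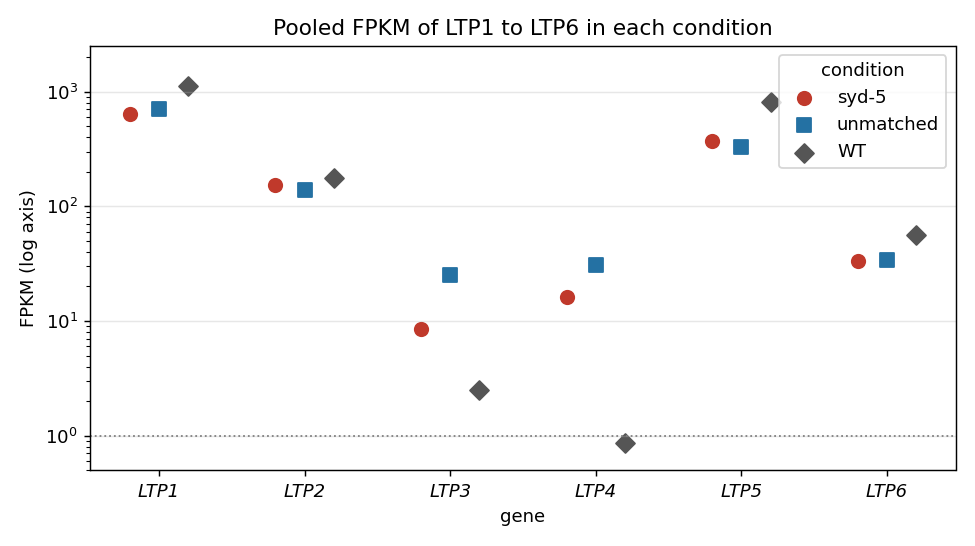
Pooled FPKM (log axis) of each gene in syd-5 (circles), the unmatched condition (squares) and WT (diamonds), 1 deposited value per point. The WT diamonds lie above the others for LTP1, LTP2, LTP5 and LTP6 and below them for LTP3 and LTP4; the dotted line marks 1 FPKM.

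LTP1 (AT2G38540, chromosome 2, 16130350 to 16131174, TAIR10) was the most abundant of the 6 in every condition. It had 644 FPKM in syd-5, 703 in the unmatched condition and 1120 in WT, where it ranked 58 among all loci. Both non-WT conditions were thus below WT and close to each other, at 57.5% and 62.8% of its level. On the log2 scale the ratio to WT was -0.80 in syd-5 (implied standard error 0.235) and -0.67 in the unmatched condition (0.237), and the q in the authors' deposited table was 0.000567 in each, the smallest value it holds.

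LTP2 (AT2G38530, chromosome 2, 16128378 to 16129158) lies next to LTP1, with 1191 bp and no other locus between them. It had 154 FPKM in syd-5, 138 in the unmatched condition and 178 in WT. The gap to WT was the smallest of the 6 genes, with 86.6% of the WT level left in syd-5 and 77.7% in the unmatched condition. Its log2 ratio was -0.21 in syd-5 (implied standard error 0.222), and in the authors' deposited table this did not pass the threshold (q = 0.268). In the unmatched condition the ratio was -0.36 (implied standard error 0.223; q = 0.0246 in the authors' deposited table). LTP1 exceeded LTP2 by 4.18-fold in syd-5, 5.09-fold in the unmatched condition and 6.30-fold in WT, so the neighbours were closer in level in both non-WT conditions.

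LTP5 (AT3G51600, chromosome 3, 19138394 to 19139252) was the second most abundant member and had the largest falls. It had 374 FPKM in syd-5, 331 in the unmatched condition and 809 in WT, which left 46.2% and 40.9% of the WT level. The log2 ratio was -1.11 in syd-5 (implied standard error 0.232) and -1.29 in the unmatched condition (0.228), each with q = 0.000567 in the authors' deposited table. Of all tested loci, 2.76% had a lower change than LTP5 in syd-5 and 1.78% in the unmatched condition.

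LTP6 (AT3G08770, chromosome 3, 2664130 to 2664834) was expressed at a middle level. It had 33.6 FPKM in syd-5, 34.2 in the unmatched condition and 56.1 in WT, so the non-WT conditions were nearly equal and both lower than WT. The log2 ratio was -0.74 in syd-5 (implied standard error 0.277) and -0.71 in the unmatched condition (0.275), with q = 0.000567 for both in the authors' deposited table.

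LTP3 (AT5G59320, chromosome 5, 23928971 to 23929745) was scarce in WT and higher in both non-WT conditions, most of all in the unmatched condition. It had 8.48 FPKM in syd-5, 25.3 in the unmatched condition and 2.50 in WT, which is 3.39-fold and 10.1-fold the WT level. The log2 ratio was 1.76 in syd-5 (implied standard error 0.574) and 3.34 in the unmatched condition (0.518), each with q = 0.000567 in the authors' deposited table. In log2(FPKM + 1), a scale that shrinks changes of scarce genes, the rises were 1.44 and 2.91, and 283 tested loci in syd-5 and 26 in the unmatched condition had a larger one.

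LTP4 (AT5G59310, chromosome 5, 23925085 to 23925852) had the largest ratios of the family. It had 16.2 FPKM in syd-5, 30.9 in the unmatched condition and 0.862 in WT. Among all 31747 loci its rank by FPKM was 17979 for WT, 8612 for syd-5 and 5262 for the unmatched condition. A rank among filtered loci would mislead for WT, since loci below 1 FPKM there passed only through a non-WT condition. LTP4 thus stood under 1 FPKM in WT and above it in both other conditions. The ratio to WT was 18.9-fold in syd-5 and 35.9-fold in the unmatched condition, or 4.24 and 5.17 in log2, with implied standard errors of 0.727 and 0.696 (q = 0.000567 for both in the authors' deposited table). These errors are over 2 times the median of all tested loci, so the size of the fold is less certain than that of LTP1, LTP2, LTP5 and LTP6. On the scale of log2(FPKM + 1), where the rises were 3.21 and 4.10, only 10 tested loci in syd-5 and 5 in the unmatched condition had a larger rise.

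**Figure D2:**
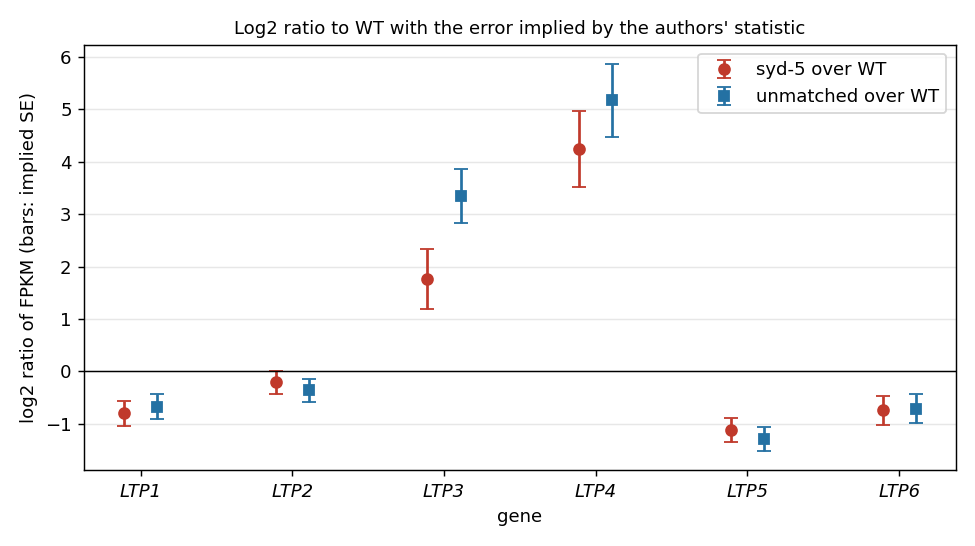
Log2 ratio of FPKM to WT for each gene in syd-5 (circles) and the unmatched condition (squares); bars are the implied standard error. LTP3 and LTP4 lie between 1.76 and 5.17, while the other members lie between -1.29 and -0.21.

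LTP3 and LTP4 form a tandem pair with 3118 bp and no other locus between them, and the order of their levels differed between conditions. LTP4 was at 1.92 times the level of LTP3 in syd-5 and 1.22 times in the unmatched condition, against 0.344 times in WT. How reads that match several copies of the family were assigned is not given in the sources used here, so the split of the signal within each tandem pair is uncertain. The summed level of the pair was 24.7 FPKM in syd-5, 56.3 in the unmatched condition and 3.37 in WT.

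Set directly against each other, the unmatched condition and syd-5 differed most at the same pair. LTP3 was at 2.99 times and LTP4 at 1.90 times its syd-5 level in the unmatched condition, or 1.58 and 0.93 in log2. The ratios of LTP1, LTP2, LTP5 and LTP6 between the conditions lay between 0.886 and 1.09. The authors' deposited table holds no test of the unmatched condition against syd-5, both are set against the same WT values, and no test was made here.

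The rises did not make up for the falls in the summed level of the 6 genes. The sum was 1230.1 FPKM in syd-5, 1263 in the unmatched condition and 2167 in WT, or 56.8% and 58.3% of WT. LTP1 and LTP5 together gave 82.7% of the sum in syd-5, 81.9% in the unmatched condition and 89.1% in WT. LTP4 gave 1.32%, 2.45% and 0.0398% in the same conditions, and LTP3 0.689%, 2.01% and 0.116%. From high to low, the order of levels was LTP1, LTP5, LTP2 and LTP6 in all 3 conditions, with LTP4 before LTP3 in both non-WT conditions and LTP3 before LTP4 in WT. The highest member exceeded the lowest by 75.9-fold in syd-5, 27.7-fold in the unmatched condition and 1300-fold in WT. The WT figure rests on LTP4 at 0.862 FPKM, and LTP1 exceeded LTP3 by 447-fold there. The range of levels within the family was thus narrower in the non-WT conditions. This largely restates the rises of LTP3 and LTP4, which were known when the genes were chosen.

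**Figure D3:**
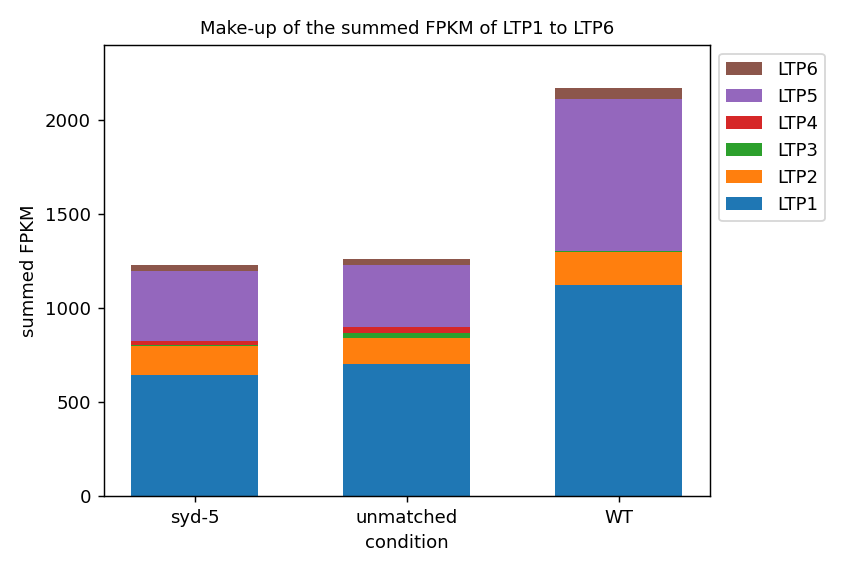
Stacked bars of the FPKM of the 6 genes in syd-5, the unmatched condition and WT, starting at 0. The bars reach 1230.1, 1263 and 2167 FPKM, and LTP1 and LTP5 fill most of each.

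The chromosomal surroundings of the members were examined next, within 20 kb on each side of the 4 blocks formed by the tandem pairs, LTP5 and LTP6. Of 50 neighbouring loci, 31 were tested, and in the authors' deposited table, 7 passed the threshold in each comparison (3 rises and 4 falls), or 22.6%, against 27.9% and 28.1% of all tested loci. Around LTP4 and LTP3, 7 neighbours were tested, of which 0 rose and 2 fell in each comparison at q < 0.05. Their changes in log2(FPKM + 1) ran between -1.39 and 0.17 in syd-5 and between -1.24 and 0.07 in the unmatched condition, far below those of the pair itself. The pair was chosen with its large rises known, and few loci anywhere rise as far. This gap was therefore largely fixed beforehand. The locus next to LTP3, AT5G59330, had 11.3 FPKM in syd-5, 11.0 in the unmatched condition and 15.7 in WT (q = 0.263 and 0.201 in the authors' deposited table). The locus on the other side, next to LTP4, AT5G59305, was listed at 0 FPKM in syd-5 and in the unmatched condition, and at 0.15 FPKM in WT.

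Around LTP5 the tandem neighbour LTP12, a further lipid transfer protein gene 1718 bp away, was listed at 0 FPKM in syd-5, at 0.234 in the unmatched condition and at 0 in WT, and was not tested by the authors. On its other side, 299 bp away, NPU, a gene of pollen wall formation, had 34.0 FPKM in syd-5, 34.6 in the unmatched condition and 30.8 in WT (q = 0.552 and 0.468 in the authors' deposited table). The fall of LTP5 thus stood beside levels of NPU that differed from WT by 0.14 and 0.16 on the log2(FPKM + 1) scale. Beside LTP6, AT3G08780 had 19.1, 20.5 and 17.6 FPKM in syd-5, the unmatched condition and WT (q = 0.677 and 0.350 in the authors' deposited table), and AT3G08762 was listed at 0 in all 3. Next to the LTP2 and LTP1 pair, AT2G38520 stood at or below 0.127 FPKM and AT2G38544 at 0 in every condition. The largest change among tested neighbours that rose was that of FER, a receptor kinase gene about 19.6 kb from LTP5, at 0.89 in syd-5 and 1.13 in the unmatched condition; it was picked after its values were seen.

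**Figure D4:**
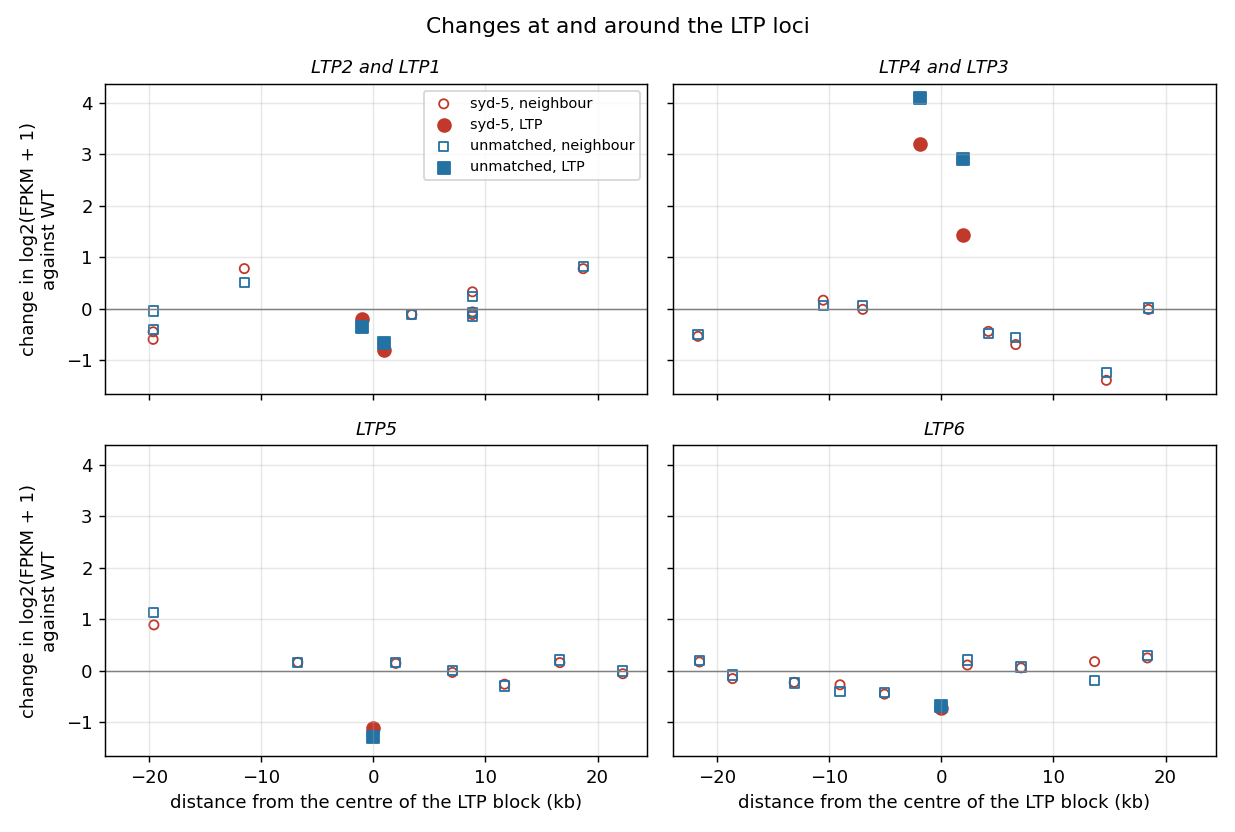
Change in log2(FPKM + 1) against WT for loci that reached 1 FPKM in any condition, by distance in kb from the centre of each LTP block; filled symbols are LTP genes, open symbols neighbours, circles syd-5 and squares the unmatched condition. The filled symbols of LTP4 and LTP3 lie between 1.44 and 4.10, while the neighbours in that panel lie at or below 0.17.

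To place each member among all genes, the loci with the nearest pair of changes were looked up among the 14093 loci whose mean reached 5 FPKM, by Euclidean distance over the 2 changes in log2(FPKM + 1). With 3 conditions and shared WT values, such a likeness is weak and says nothing of shared control. The patterns of LTP1, LTP2, LTP5 and LTP6 were common, with 1769, 7060, 456 and 1946 loci within 0.5 of them. LTP2 changed so little (-0.21 and -0.36) that this radius also takes in loci without any change. Its count therefore does not show how common such a fall is. Nearest to LTP1 were AT2G17972, AT2G28720 and AT4G27700, at a distance of up to 0.011. Nearest to LTP2 were PTAC12, a plastid transcription gene, AT5G08570 and AT4G32605, at up to 0.007. In the authors' deposited table, PTAC12 passed the threshold in the unmatched condition only, and AT5G08570 and AT4G32605 in neither comparison. Nearest to LTP6 were AT2G36430, the merged locus of FTSH8, and AT4G09750, at up to 0.013. LTP5 had as its nearest AT1G26220, the merged locus of HYH, a light signalling transcription factor gene, and BEL1, a homeobox gene of ovule development, at up to 0.036.

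The patterns of LTP3 and LTP4 were rare, with 3 and 2 loci within 0.5. Both genes were chosen with their large rises known, and few loci rise as far. The implied standard errors of LTP3 (0.574 and 0.518) and LTP4 (0.727 and 0.696) belong to ratios without a pseudocount. They cannot be set directly against a radius in log2(FPKM + 1), and no error is known on that scale. The count and the order of the nearest loci are therefore uncertain. Nearest to LTP3 was AT3G28220, at a distance of 0.374 (9.25 FPKM in syd-5, 19.9 in the unmatched condition and 2.58 in WT). XTH33, a xyloglucan endotransglucosylase gene, followed at 0.390, and COR15A, a cold-induced chloroplast protein gene also induced by abscisic acid, at 0.412. COR15A had 5.36 FPKM in syd-5, 11.3 in the unmatched condition and 0.794 in WT. Nearest to LTP4 was the touch-induced cell wall gene TCH4 (distance 0.257), followed by the potassium transporter gene HAK5 (0.413) and EXO, a gene of the EXORDIUM growth family (0.563). HAK5 resembled LTP4 in level as well, with 20.5 FPKM in syd-5, 26.2 in the unmatched condition and 0.792 in WT.

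Other genes of lipid transfer proteins were taken from lists drawn up by hand, and they went in both directions. Calls in these and the later lists stand beside 27.9% of all tested loci called in syd-5 and 28.1% in the unmatched condition. Rises made up 13.8% and 13.7% of all tested loci, and falls 14.1% and 14.4%. Of 6 other type 1 genes 3 were tested. In the authors' deposited table, 1 of them rose and 0 fell in syd-5, and 1 rose and 1 fell in the unmatched condition, with a median change in log2(FPKM + 1) of -0.27 and -0.45, against 0.010 and -0.015 over all tested loci. The rise was that of AT2G18370, with 59.9 FPKM in syd-5, 53.7 in the unmatched condition and 29.1 in WT (q = 0.000567 for both in the authors' deposited table). The fall in the unmatched condition was that of AT5G01870, with 70.4 FPKM in syd-5, 52.9 in the unmatched condition and 84.9 in WT (q = 0.183 in syd-5 and 0.000567 in the unmatched condition in the authors' deposited table). LTP7, listed as LTP in RefSeq, had 60.4, 63.9 and 87.5 FPKM in syd-5, the unmatched condition and WT without passing the threshold (q = 0.242 and 0.239 in the authors' deposited table). AT4G33355 stayed under 1 FPKM, and AT2G15325 was listed at 0 in every condition.

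Among type 2 genes and DIR1, 10 of 16 were listed at 0 in every condition and 5 were tested. In the authors' deposited table, 1 rose and 3 fell in syd-5, and 1 rose and 2 fell in the unmatched condition (median changes -0.41 and -0.36). DIR1, which is required for long-distance immune signalling, fell to 88.8 FPKM in syd-5 and 68.1 in the unmatched condition, against 154.8 in WT, a change of -0.79 and -1.17 in log2(FPKM + 1). AT3G18280 also fell in both comparisons (-0.41 and -0.86), AT5G48490 fell in syd-5 (-0.60), and AT1G48750 rose in both (0.65 and 0.72).

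Of 25 genes for GPI-anchored lipid transfer proteins, 17 were tested, 2 of them only through the non-WT conditions. In the authors' deposited table, 6 rose and 4 fell in syd-5, and 6 rose and 3 fell in the unmatched condition (median changes 0.40 and 0.29). The rises included EDA4 (1.22 in syd-5 and 1.13 in the unmatched condition) and AT3G58550 (1.13 and 1.35). LTPG1, which takes part in the export of wax to the shoot surface, fell to 147 FPKM in syd-5 and 145 in the unmatched condition, against 238 in WT, a change of -0.70 and -0.71. LTP6 changed by -0.72 and -0.70 on the same scale. AT2G27130 fell in syd-5 (-0.90, q = 0.000567 in the authors' deposited table) and did not pass in the unmatched condition (-0.32, q = 0.217). That difference was not tested.

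The hybrid proline-rich proteins related to AZI1 and EARLI1 have a domain of the lipid transfer protein type, and 19 of 20 were tested. In the authors' deposited table, 9 rose and 5 fell in syd-5, and 8 rose and 6 fell in the unmatched condition (median changes 0.10 and 0.27). The median in syd-5 was 0.35 after quantile normalization and 0.34 over loci with at least 5 FPKM. AT5G46890 had 95.1 FPKM in syd-5, 54.1 in the unmatched condition and 12.8 in WT, and AT4G12490 had 135.9, 74.3 and 19.4 FPKM in the same order. Their changes in syd-5 were 2.80 and 2.75. AT5G46900 rose by 2.45 and 1.67, and AT1G62510 by 1.49 and 1.97. Closely related copies lie in tandem in this list, so single members are uncertain. AZI1, which primes systemic immunity, fell in both comparisons, with 186 FPKM in syd-5, 165.6 in the unmatched condition and 282 in WT.

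**Figure D5:**
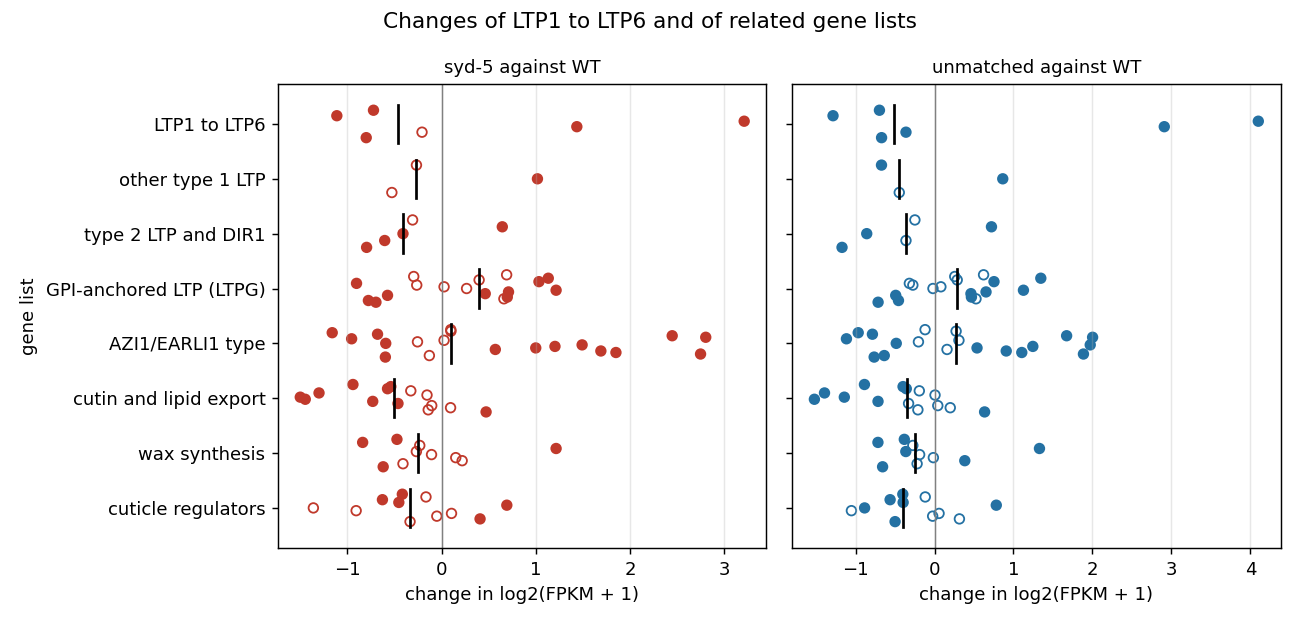
Change in log2(FPKM + 1) against WT in syd-5 (left) and the unmatched condition (right), 1 point per locus that passed the filter; filled points have q < 0.05 in the authors' table, and black lines are list medians. In the left panel LTP4 is farthest to the right at 3.21, and LTP3, at 1.44, lies below 6 genes of the AZI1 list (up to 2.80). In the right panel LTP4 and LTP3, at 4.10 and 2.91, lie beyond all points of the other lists shown.

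Genes that make and export the cuticle, the lipid layer over the shoot epidermis, were compared as the surroundings in which the proteins act. Of 14 cutin synthesis and lipid export genes, all were tested. In the authors' deposited table, 1 rose and 8 fell in syd-5, and 1 rose and 7 fell in the unmatched condition (median changes -0.50 and -0.34). Over all tested loci, rises were 13.8% and 13.7%, and falls 14.1% and 14.4%. The cutin genes PEL3 (-1.50 in syd-5 and -1.14 in the unmatched condition) and CYP77A6 (-1.45 and -1.52) and the merged locus of AT5G33370 (-1.30 and -1.39) were among the falls. CYP86A2, a fatty acid hydroxylase gene of cutin synthesis, was the rise, with 89.8 FPKM in syd-5, 100.5 in the unmatched condition and 64.4 in WT. Of 12 wax genes 10 were tested, with 1 rise and 3 falls in syd-5 and 2 rises and 4 falls in the unmatched condition in the authors' deposited table. KCS1, a fatty acid elongase gene, rose (1.22 and 1.33), and LACS1 (-0.84 and -0.72) and the alkane synthesis gene CER1 (-0.62 and -0.66) fell.

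Of 13 regulators of cuticle and epidermal genes 11 were tested. In the authors' deposited table, 2 rose and 3 fell in syd-5, and 1 rose and 5 fell in the unmatched condition (median changes -0.33 and -0.40). MYB96, known to activate LTP3, had 6.51 FPKM in syd-5, 5.69 in the unmatched condition and 8.47 in WT. It fell in the unmatched condition (-0.50, q = 0.00912 in the authors' deposited table) and did not pass the threshold in syd-5 (-0.33, q = 0.0928). Its part in the level of LTP3 was not tested. MYB16, a regulator of cuticle formation, rose (0.69 and 0.78), while the epidermal homeobox genes PDF2 (-0.63 and -0.56) and HDG1 (-0.45 and -0.40) fell. Over all 9 lists, from the other type 1 genes to the epidermis and root markers described next, 53 of 94 tested loci passed the threshold in syd-5 and 54 in the unmatched condition in the authors' deposited table, or 56.4% and 57.4%, against 27.9% and 28.1% of all tested loci. The lists were drawn up with earlier results of these data known, so these shares are a description.

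Markers of the shoot epidermis and of the root were counted in the same comparisons, and 4 of 8 and 7 of 12 did not pass the threshold in syd-5, and 5 and 6 did not in the unmatched condition. The 8 shoot epidermis markers overlap the lists above, with LTPG1, the wax gene KCS6 and the regulators PDF2 and HDG2 among them. PDF2, HDG2 and LTPG1 fell in both comparisons. In the authors' deposited table, 0 of the 8 rose and 4 fell in syd-5, and 0 rose and 3 fell in the unmatched condition. Falls over all tested loci were 14.1% and 14.4%. The changes of the 8 markers in log2(FPKM + 1) ran between -0.70 and -0.11 in syd-5 and between -0.71 and -0.12 in the unmatched condition. Medians were -0.26 and -0.18, and none of the markers was at 0 FPKM. Their summed level was 693 FPKM in syd-5, 692 in the unmatched condition and 867 in WT. LTP5 had a lower change than any of the 8 markers in both comparisons. In syd-5, LTP1 (-0.80) and LTP6 (-0.72) lay below LTPG1 (-0.70), the lowest marker, by less than their implied standard errors (0.235 and 0.277). In the unmatched condition LTP1 (-0.67) and LTP6 (-0.70) lay within the range of the markers. LTP2 did so in both comparisons, while LTP3 and LTP4 rose in both. Of 12 root markers 4 rose and 1 fell in syd-5, and 4 rose and 2 fell in the unmatched condition. Their median was -0.03 in both, but their changes ran between -2.68 and 1.07 in syd-5 and between -2.68 and 1.195 in the unmatched condition. IRT1 had the largest fall (-2.68 in both), while CASP1 (1.07 and 0.80) and SMB (0.88 and 1.195) rose. Among all tested loci, 27.9% and 28.1% were called. Over root markers with at least 5 FPKM, and likewise over loci with 1 gene name, the medians were -0.22 (syd-5) and -0.30 (unmatched condition). The root markers had a summed level of 242 FPKM in syd-5, 228 in the unmatched condition and 233 in WT. None was at 0 FPKM. The part of tissue composition in the levels of LTP1 to LTP6 was not tested.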

How the data were processed

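Total RNA of whole seedlings was sequenced as paired reads, per the labels' protocols. TopHat2 2.1.1, Cufflinks 2.1.1 and Cuffdiff 2.1.1 with the TAIR10 genome are named in the submitters' processing notes; their settings and the strandedness are not given there. Per the file headers, the authors deposited FPKM, with replicates of a condition combined into 1 value, and the test statistic is a score deposited for each comparison with WT. The p-value and q-value are the authors' deposited Cuffdiff results, adjusted by them. Their smallest values, 5e-05 and 0.000567, are shared by many loci.

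The members, lists and rule for named genes were chosen with earlier results of these data known. Locus starts were raised by 1 to count from 1. Gene identifiers were looked up among the locus tags of a RefSeq gene table for TAIR10.1, used for symbols only (32806 of 33553, all 6 members). Where a gene is at several loci, that with the highest mean FPKM was taken; the reads of the 2056 merged loci cannot be split. The 18505 loci that reached 1 FPKM in any condition were kept, and changes are in log2(FPKM + 1); ratios named as such have no pseudocount. Calls are q < 0.05, and no further test was run. The implied standard error is the log2 ratio over the statistic. Normal deviates computed from the deposited p had a median size of 1.74 times the statistic, so errors on the scale of p would be smaller. Named genes are the members, SYD, SWI3D, the other type 1 genes, the nearest named locus on each side, the 3 nearest patterns per member, and up to 3 called genes of smallest q per list and comparison. CYP86A2, KCS6, AZI1 and FER, outside that rule, were added after their values were seen. Promoter and protein sequences were not analysed here. Calculations used Python 3.11.15, pandas 2.3.3 and numpy 2.4.6, and were tested on simulated data.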

Additional observations from a re-analysis of the deposited data

How the results depend on the processing

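Alternatives were a pseudocount of 0.1, quantile normalization of the 3 conditions, scaling to a median log2 ratio of 0, q < 0.01, and an adjustment of the authors' p within each comparison; for the other lists also no filter, at least 5 FPKM, and loci with 1 gene name. Of 60 member values under these (12 values in 5 settings), 59 kept direction and side of the threshold and 0 reversed. Most of that count was fixed beforehand and is no measure of robustness. The pseudocount, the quantile normalization and the scaling change the size of a change and not the authors' q. The stricter threshold and the new adjustment cannot change a direction. LTP2 in the unmatched condition, at -0.36, no longer passed with q < 0.01, which leaves 5 members called there. With q < 0.01 the type 2 list had 1 call in syd-5, the regulators 3 and the epidermis markers 2, and the wax genes 3 in the unmatched condition; with at least 5 FPKM the cutin list had 5 calls in the unmatched condition. With no filter the median of the other type 1 genes in syd-5 was 0.09. No paired analysis was possible because no values of single libraries are in the table, and leaving out a replicate was not run for the same reason. Errors and depth per library are unknown, which limits the scarce LTP3 and LTP4 most.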
